A study of Homo sapiens with 15 samples.

Results

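Medium-cloaked eGFP mRNA was compared with non-cloaked eGFP mRNA across all expressed genes of HepG2 cells, a line from a human hepatocellular carcinoma that keeps much of the liver's secretory program. The comparison rested on 6 of the 15 RNA-seq libraries of the series, 3 biological replicates in each of the 2 groups, chosen by their labels. The medium-cloaked group received 1 µg of eGFP mRNA that had been treated with 0.5 M of a reagent named CR-3 for 1 h at 30 °C. The non-cloaked group received 1 µg of the same mRNA without that treatment. Both were transfected with the lipid nanoparticle reagent NanoLNP in 6-well plates and harvested at 48 h, from cells labelled wild type. The other 9 libraries, 3 each of untransfected cells, weak-cloaked mRNA (0.1 M, 0.5 h, 25 °C) and strong-cloaked mRNA (1 M, 2 h, 37 °C), entered the same fit and gave the setting for the comparison. No group received particles without mRNA, and all libraries come from 1 cell line.

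An mRNA carried in a lipid particle enters through endosomes and has to reach the cytosol before ribosomes can read it. There, foreign RNA can meet the sensors RIG-I and MDA5, which signal through MAVS to interferon genes, and the effectors PKR and the oligoadenylate synthetases, which slow translation and cleave RNA. Interferon then acts through STAT2, IRF9 and their partners on interferon-stimulated genes such as ISG15, IFIT1 and MX1. Chemical modification of an mRNA can alter both how it is recognised and how it is translated. Uptake and translation of eGFP were not measured in the files analysed here.

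The libraries held 71558811 to 76549927 counts in the medium-cloaked group and 61472811 to 74637354 in the non-cloaked group. The hepatocyte marker ALB, encoding albumin, was high in both. It stood at 6707, 6122 and 6915 CPM (counts per 1000000 counts of the library) in medium-cloaked cells, against 5826, 4494 and 4586 CPM in non-cloaked cells. None of 11 tested leukocyte markers, none of 12 fibroblast and endothelial markers and 1 of 11 markers of other epithelial lines (CDX2) had an unadjusted p below 0.05 between the groups. Over all tested genes the share was 9.5%. With 1 library left out, each of these lists held at most 2 such members, all lower. The 95% interval of the fold change lay within 2-fold for 3 leukocyte, 4 fibroblast and endothelial and 5 other epithelial markers. Over all tested genes it did for 54.7%. The medium-cloaked libraries lay closer to each other than the non-cloaked ones did, with a median SD over genes of 0.20 on the log2 scale against 0.29. The 2 groups overlapped on the first principal component, which carried 21.1% of the variance. The medium-cloaked libraries lay there at 17.0, 27.8 and 26.4 and the non-cloaked libraries at -7.81, 17.3 and 24.4. On the second principal component, which carried 9.08% of the variance, the medium-cloaked libraries lay at -26.5, -28.4 and -31.2. The non-cloaked libraries lay there at -1.95, 17.9 and 63.6. Libraries of other groups lay near the medium-cloaked ones, among them untransfected replicate 3 at -28.6 and weak-cloaked replicate 2 at -23.4. On that component non-cloaked replicate 3 was the farthest of these 6 from the others.

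No gene of the 18380 tested was called between medium-cloaked and non-cloaked cells by edgeR's quasi-likelihood test, with a Benjamini-Hochberg adjusted p below 0.05 as the threshold (0% called, smallest adjusted p 0.275). At an unadjusted p below 0.05, here called a small p, there were 1746 genes (9.5% of those tested), 756 higher (4.11%) and 990 lower (5.39%) in medium-cloaked cells. With library totals alone as the scaling this split was 505 higher and 1174 lower, and with only these 6 libraries in the fit it was 1329 and 1071. Without non-cloaked replicate 3 the total was 1054, and without non-cloaked replicate 1 the split was 1210 higher and 958 lower. The 3 medium-cloaked libraries lay wholly above the 3 non-cloaked ones for 2006 genes (10.9%) and wholly below them for 2073 (11.3%). Over the 18380 genes together, the log2 fold changes had a median of -0.02. In RNA from whole wells, fewer cells of a type and less RNA per cell cannot be told apart.

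The same 18380 genes gave 76 calls (0.413%) with DESeq2, a different count model run as an alternative, of which 31 were higher and 45 lower in medium-cloaked cells. All 76 had an unadjusted p below 0.05 in edgeR and no overlap between the 2 groups, and 3 of them differed at least 8-fold between replicates of a group. The 76 were chosen on the same counts, which favours both a small edgeR p and the lack of overlap. The precision of the comparison can be read from the intervals. The 95% interval of the fold change lay within 2-fold in either direction for 10063 genes (54.7%), and its median half-width was 0.62 on the log2 scale.

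The 10 genes of smallest p were all among the DESeq2 calls and none was called by edgeR; 9 of them are given here. SLC25A30 (chr13:45393316-45418455, GRCh38), a carrier of the mitochondrial inner membrane, stood at 43.9, 47.4 and 47.2 CPM in medium-cloaked cells, against 12.9, 23.0 and 18.4 CPM in non-cloaked cells. This is a 2.55-fold difference (log2 fold change 1.35 ± 0.21, SE). Untransfected cells spanned 21.1 to 32.2 CPM, weak-cloaked cells 22.7 to 28.4 and strong-cloaked cells 27.7 to 37.5, so the medium-cloaked libraries lay above every other library of the series. MTIF3 (chr13:27435643-27450591), a mitochondrial translation initiation factor, stood at 10.5, 10.2 and 11.3 CPM, against 4.87, 6.38 and 5.55 CPM (1.90-fold, log2 0.93 ± 0.17).

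UBE2J2 (chr1:1253909-1273885), a ubiquitin-conjugating enzyme of endoplasmic reticulum quality control, was lower in medium-cloaked cells. It stood at 25.3, 23.5 and 24.9 CPM in medium-cloaked cells and 43.3, 45.4 and 46.4 CPM in non-cloaked cells, a ratio of 0.545 (log2 -0.88 ± 0.15). Each group varied by only a few CPM beside the gap between them, which the choice of genes by smallest p favours. TBC1D10C (chr11:67403915-67410089), a GTPase-activating protein known mainly from lymphocytes, was low in both groups at 1.02, 0.601 and 0.822 CPM, against 1.82, 2.08 and 3.19 CPM.

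ZEB1 (chr10:31318495-31529814), a repressor of epithelial genes, stood at 7.44, 7.01 and 6.40 CPM in medium-cloaked cells, against 4.15, 3.58 and 3.09 CPM in non-cloaked cells (1.93-fold). CXADR (chr21:17512382-17593579), a cell adhesion protein first known as a virus receptor, stood at 118, 125 and 109 CPM, against 61.2, 75.2 and 54.1 CPM (1.85-fold). For both genes the groups did not overlap, which the choice by smallest p favours as well.

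SVIL (chr10:29457338-29736781), the actin-bundling protein supervillin, had the widest gap of the 9. It stood at 15.4, 8.39 and 6.91 CPM in medium-cloaked cells, against 0.660, 1.01 and 0.802 CPM in non-cloaked cells (12.4-fold, log2 3.63 ± 0.67). Weak-cloaked cells held 6.27 to 9.90 CPM and strong-cloaked cells 6.92 to 10.4, so the non-cloaked libraries were the low ones among transfected cells, while untransfected cells spanned 0.592 to 7.55 CPM. MVB12A (chr19:17405722-17433724), a subunit of the endosomal sorting complex ESCRT-I, was uneven, at 10.3, 33.8 and 29.5 CPM against 4.87, 7.28 and 5.85 CPM. SMG1P2 (chr16:29527568-29594966), a pseudogene copy of SMG1 whose reads could be shared with its relatives, stood at 0.713, 1.20 and 0.822 CPM, against 0.261, 0.287 and 0.222 CPM.

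**Figure D1:**
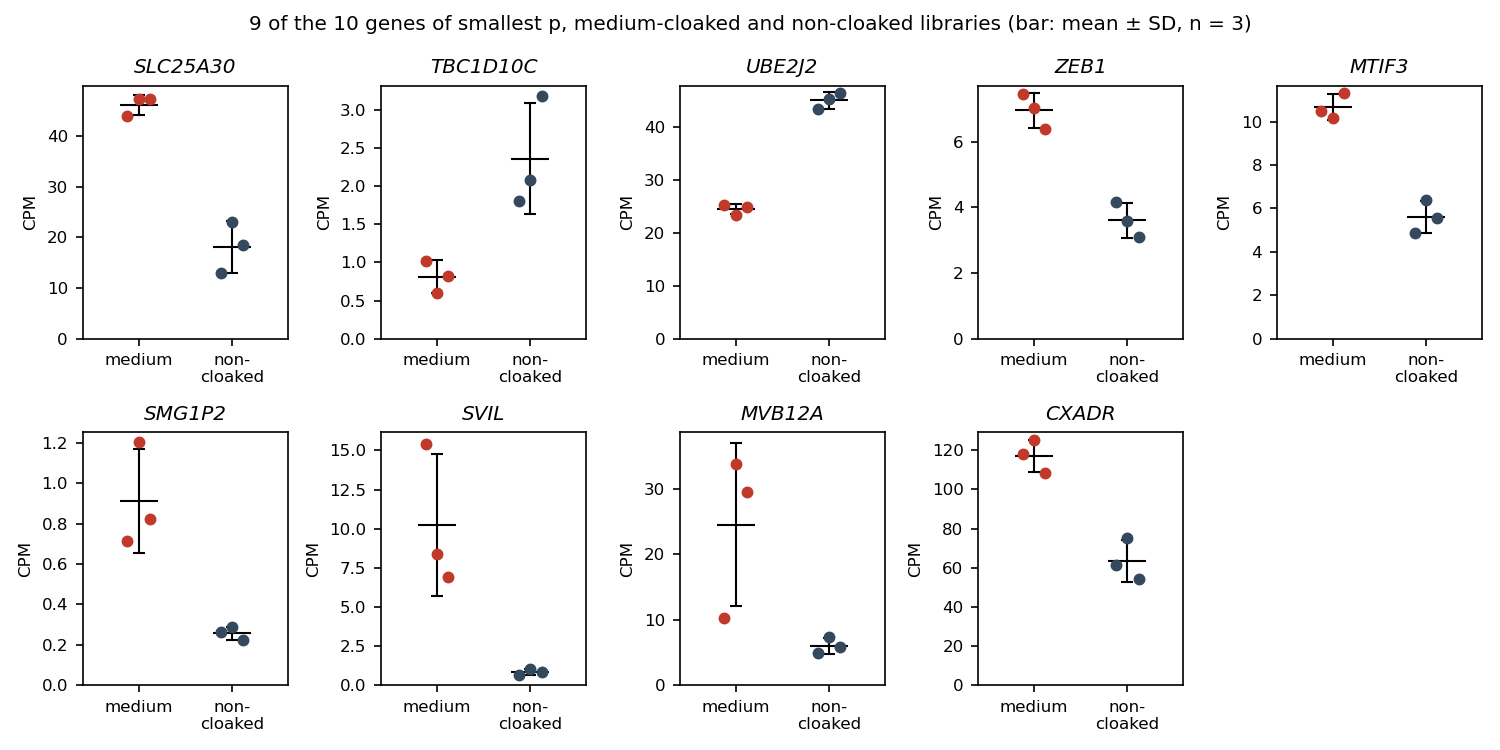
CPM of 9 of the 10 genes of smallest p, 1 point a library, medium-cloaked left and non-cloaked right, with the mean and SD of 3 libraries. The groups do not overlap in any panel. UBE2J2 and TBC1D10C are lower and the other 7 higher in medium-cloaked cells. Relative to their means, SVIL and MVB12A vary most among the medium-cloaked libraries.

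Several of these genes overlap another tested gene in the annotation, which makes their counts uncertain because the strand setting of the counting is not given in the sources used here. On the opposite strand lie TPT1-AS1 for SLC25A30, PPP1CA for TBC1D10C, ZEB1-AS1 for ZEB1, GTF3A for MTIF3 and SVIL-AS1 for SVIL. BISPR overlaps MVB12A on the same strand.

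A few other DESeq2 calls, picked after their values were seen, are given as examples. AGO3, an Argonaute protein of small-RNA silencing, stood at 20.4, 22.6 and 21.9 CPM in medium-cloaked cells, against 16.1, 14.3 and 13.3 CPM in non-cloaked cells. CNBP, which binds G-rich nucleic acids and promotes translation, stood at 499, 551 and 524 CPM, against 275, 235 and 367 CPM. Both were higher without overlap, and so was KCNQ1OT1, the long antisense RNA that silences its imprinted domain, at 8.32, 8.28 and 10.1 CPM against 4.30, 3.89 and 3.72 CPM.

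On the lower side, ESPL1, the separase that opens sister chromatids, stood at 13.7, 16.8 and 13.2 CPM, against 21.2, 28.7 and 27.2 CPM. MBD3, a subunit of the NuRD chromatin remodeller, stood at 23.8, 20.6 and 19.2 CPM, against 34.3, 31.8 and 38.6 CPM. Both were separated by less than UBE2J2 on the log2 scale, and their edgeR adjusted p was 0.457 for each.

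Among the 18 tested of 23 listed RNA sensors and their signalling proteins, none was higher and 3 were lower at an unadjusted p below 0.05. Over all tested genes 5.39% were lower. The median log2 fold change of the list was -0.06 and turned to 0.05 without non-cloaked replicate 1. Lower members numbered 2 to 4 when 1 library was left out, with 2 without non-cloaked replicate 3 or medium-cloaked replicate 2. The correction for length and GC left 2. The RIG-I gene DDX58 stood at 1.06, 0.793 and 1.06 CPM in medium-cloaked cells, against 0.976, 0.766 and 0.871 CPM in non-cloaked cells. IFIH1, encoding MDA5, stood at 3.74, 4.28 and 5.56 CPM, against 4.07, 3.93 and 2.85 CPM. The ranges of both genes overlapped between the groups.

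The adaptor MAVS was close to level, at 133, 135 and 134 CPM against 147, 138 and 118 CPM (log2 -0.01 ± 0.10). The 3 lower members act after the sensors. TICAM1, the adaptor of TLR3, stood at 6.54, 7.28 and 7.93 CPM, against 9.08, 10.1 and 14.3 CPM (log2 -0.62 ± 0.19). IRF3, the transcription factor that turns on interferon genes, stood at 48.9, 46.7 and 46.2 CPM, against 54.5, 59.5 and 76.7 CPM (log2 -0.43 ± 0.13). IKBKE, a kinase of IRF3, was low in both groups at 2.33, 1.71 and 1.72 CPM against 2.38, 3.28 and 3.81 CPM. In each of the 3 the groups did not overlap, and for TICAM1 and IRF3 non-cloaked replicate 3 was the highest library.

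The 12 double-stranded RNA effectors, all tested, held 1 lower gene, with none lower under the correction for length and GC or without any 1 of non-cloaked replicates 2 and 3 and medium-cloaked replicates 1 and 2, and a median of 0.05, which came to -0.01 without non-cloaked replicate 3. That gene was TARBP2, a partner of Dicer and inhibitor of PKR, with a log2 fold change of -0.34 ± 0.14. The share of the list with a small p was 8.33%, against 9.5% of all tested genes. EIF2AK2, encoding PKR, stood at 29.1, 28.5 and 27.2 CPM in medium-cloaked cells, against 27.7, 23.5 and 20.9 CPM in non-cloaked cells, with a 95% interval of -0.13 to 0.60. ADAR, which edits double-stranded RNA, was at 159, 151 and 158 CPM, against 156, 155 and 132 CPM.

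Of 47 listed interferon-stimulated genes 42 were tested: 2 were higher and none lower at an unadjusted p below 0.05, with a median of -0.09, and 28 of the 42 had a log2 fold change below 0. The share with a small p was 4.76%, against 9.5% of all tested genes. Of the 18380 tested genes 9612 had a log2 fold change below 0. The correction for length and GC gave 1 higher and 1 lower, with a median of -0.03. Leaving out 1 library gave 0 to 5 higher members, with 5 without non-cloaked replicate 1 and 0 without non-cloaked replicate 2, and 0 to 3 lower ones, with 3 without weak-cloaked replicate 1. ISG15, a ubiquitin-like modifier, stood at 45.3, 52.8 and 47.5 CPM in medium-cloaked cells, against 48.2, 56.2 and 67.1 CPM in non-cloaked cells (log2 -0.24, 95% interval -0.57 to 0.10). OAS1, an oligoadenylate synthetase, stood at 36.3, 39.1 and 39.6 CPM, against 41.4, 44.2 and 44.3 CPM (-0.18, interval -0.45 to 0.10). For OAS1 the groups did not overlap, but the interval of the difference includes 0.

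MX1, a GTPase that traps viral particles, stood at 1.39, 1.05 and 1.09 CPM against 1.29, 2.13 and 2.46 CPM (-0.74, interval -1.49 to 0.02). IFIT1, which binds RNA ends, stood at 1.90, 1.38 and 1.26 CPM against 2.06, 1.56 and 1.14 CPM (-0.07, interval -0.76 to 0.62). The intervals of ISG15 and OAS1 therefore leave out a 2-fold difference, while that of MX1 does not. The 2 higher members were TRIM22, an antiviral ubiquitin ligase, at 1.41, 1.67 and 1.35 CPM against 1.33, 0.807 and 0.580 CPM, and IRF9, at 2.56, 0.998 and 1.04 CPM against 0.756, 0.739 and 0.973 CPM.

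**Figure D2:**
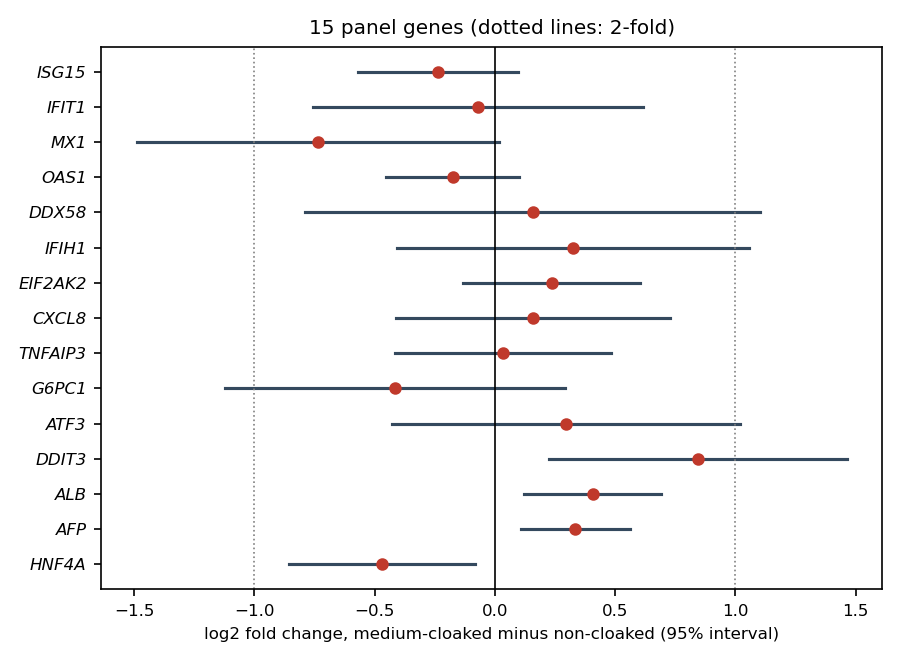
Log2 fold change of 15 panel genes, medium-cloaked minus non-cloaked, with 95% intervals from the quasi-likelihood fit; dotted lines mark 2-fold. The intervals of ISG15, IFIT1, OAS1, EIF2AK2, CXCL8 and TNFAIP3 lie between the dotted lines and include 0, while those of DDIT3, ALB, AFP and HNF4A do not include 0.

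Among 12 tested interferon and receptor genes of 17 listed, the 1 with a small p was SOCS3, the feedback inhibitor of cytokine signalling, at 9.64, 6.74 and 6.61 CPM in medium-cloaked cells against 16.4, 17.2 and 11.4 CPM in non-cloaked cells (log2 -0.97 ± 0.34). That is 8.33% of this list with a small p, against 9.5% of all tested genes. Without non-cloaked replicate 1 there were 1 higher and 2 lower, and with the correction for length and GC 1 each way. Among 21 tested NF-kappaB targets and cytokines of 26 listed, 1 was lower and none higher, 4.76% with a small p. The median of -0.13 came to 0.05 without non-cloaked replicate 3. The counts came to 2 higher and 1 lower without that library, 1 higher and 3 lower without non-cloaked replicate 2, 2 lower without non-cloaked replicate 1, and 1 each way with the correction for length and GC. The lower gene was the chemokine CXCL3, with 0 counts in all 3 medium-cloaked libraries and 7, 4 and 20 counts in the non-cloaked ones. The non-cloaked mean was 3.93-fold a floor of 3 counts per medium-cloaked library. It was 1.81-fold that floor without non-cloaked replicate 3, which held most of the counts. These ratios leave out the error of the few non-cloaked counts. CXCL8, the neutrophil chemokine interleukin 8, stood at 13.7, 15.6 and 12.9 CPM against 11.9, 7.58 and 18.2 CPM, and TNFAIP3, the NF-kappaB inhibitor A20, at 76.2, 76.3 and 89.4 CPM against 66.2, 68.2 and 102 CPM. Both overlapped between the groups. None of 21 antigen presentation genes had a small p, though 3 were higher without non-cloaked replicate 1, 2 without non-cloaked replicate 2, and 1 without non-cloaked replicate 3 or weak-cloaked replicate 1, and 1 with the correction for length and GC.

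The directions of DDX58, EIF2AK2 and CXCL8 depended on the correction for length and GC content, with which their log2 fold changes were -0.026, -0.082 and -0.079. ISG15 kept its sign, but its log2 fold change was -0.029 with that correction and -0.10 without non-cloaked replicate 3. The log2 fold changes of IFIT1, CXCL8 and TNFAIP3 changed sign when 1 library was left out. None of these 6 genes can be given a direction here.

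Chaperone genes leaned higher. Of 22 heat shock genes 6 were higher and none lower at an unadjusted p below 0.05, against 4.11% higher over all tested genes, with a list median of 0.26 and 17 of 22 above 0. HSP90AA1, the stress-induced HSP90, stood at 869.8, 946 and 911 CPM in medium-cloaked cells, against 696, 523 and 522 CPM in non-cloaked cells (log2 0.65 ± 0.20). HSPA8, the constitutive HSP70, stood at 767, 924 and 898 CPM, against 643, 642 and 493 CPM. DNAJB4, an HSP70 co-chaperone, stood at 34.4, 35.2 and 32.1 CPM, against 25.1, 16.1 and 14.9 CPM. All 3 were separated without overlap, yet their adjusted p in edgeR was 0.474 to 0.497. Leaving out 1 library gave 3 to 8 higher members, with 3 without medium-cloaked replicate 2, non-cloaked replicate 2 or non-cloaked replicate 3, and the correction for length and GC left 4.

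In the endoplasmic reticulum, 6 of 25 unfolded protein response genes were higher and none lower, with a median of 0.09. That is 24% with a small p, against 9.5% of all tested genes. HSP90B1, the HSP90 of that compartment, stood at 1507, 1475 and 1579 CPM in medium-cloaked cells, against 1211, 1070.0 and 844 CPM in non-cloaked cells. HSPA5, encoding BiP, stood at 2084, 2481 and 2417 CPM, against 1559, 1704 and 1701 CPM. The lectin chaperone CANX, calnexin, stood at 1047, 1057 and 1093 CPM, against 940.3, 874 and 780.2 CPM. The groups did not overlap for any of these 3, while 10.9% of all tested genes lay wholly higher in the same way. Leaving out 1 library gave 2 to 9 higher members, with 2 without medium-cloaked replicate 3 and 3 without medium-cloaked replicate 2 or non-cloaked replicate 3, and the correction for length and GC left 3.

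DDIT3, encoding the stress transcription factor CHOP, stood at 33.1, 43.3 and 40.3 CPM in medium-cloaked cells, against 20.4, 24.0 and 20.6 CPM in non-cloaked cells (log2 0.84, 95% interval 0.23 to 1.462). Weak-cloaked cells spanned 19.3 to 45.7 CPM and strong-cloaked cells 27.3 to 52.3 CPM. ATF3, an early stress factor, overlapped between the groups at 87.8, 101 and 117 CPM against 68.8, 92.9 and 87.7 CPM. The 27 tested ATF4 targets held 1 higher and 2 lower genes, with 1 to 3 in each direction when 1 library was left out and 3 in each without non-cloaked replicate 1. With all libraries the share with a small p was 11.1%, against 9.5% of all tested genes.

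Of 28 p53 targets 3 were higher and 2 lower, with a list median of 0.26 and 20 of 28 above 0. That is 17.9% with a small p, against 9.5% of all tested genes. Leaving out 1 library gave 1 to 6 higher members, with 1 without non-cloaked replicate 3 and 6 without non-cloaked replicate 1, and 0 to 2 lower ones, with 0 without non-cloaked replicate 2 or medium-cloaked replicate 3 and 1 without non-cloaked replicate 1 or medium-cloaked replicate 1 or 2. With the correction for length and GC there were 2 higher and none lower, and the median was 0.16. ZMAT3, an RNA-binding protein, stood at 53.8, 52.9 and 52.2 CPM, against 39.6, 32.2 and 19.0 CPM. PLK2, a stress-induced kinase, stood at 70.1, 83.2 and 83.8 CPM, against 42.6, 48.7 and 51.0 CPM. For ZMAT3 the non-cloaked group was the wider, with replicate 3 lowest. Of 32 immediate early genes 3 were higher and 1 lower: CCN1, a secreted matrix protein, had a log2 fold change of 1.03 ± 0.40 and FOSB, a subunit of AP-1, one of 1.32 ± 0.55. The share of this list with a small p was 12.5%, against 9.5% of all tested genes. The count of immediate early genes rested on single libraries, with none higher or lower without medium-cloaked replicate 2, none higher and 2 lower without non-cloaked replicate 1, and 1 higher without medium-cloaked replicate 3. Its median ran from 0.03 to 0.21 with 1 library left out.

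**Figure D3:**
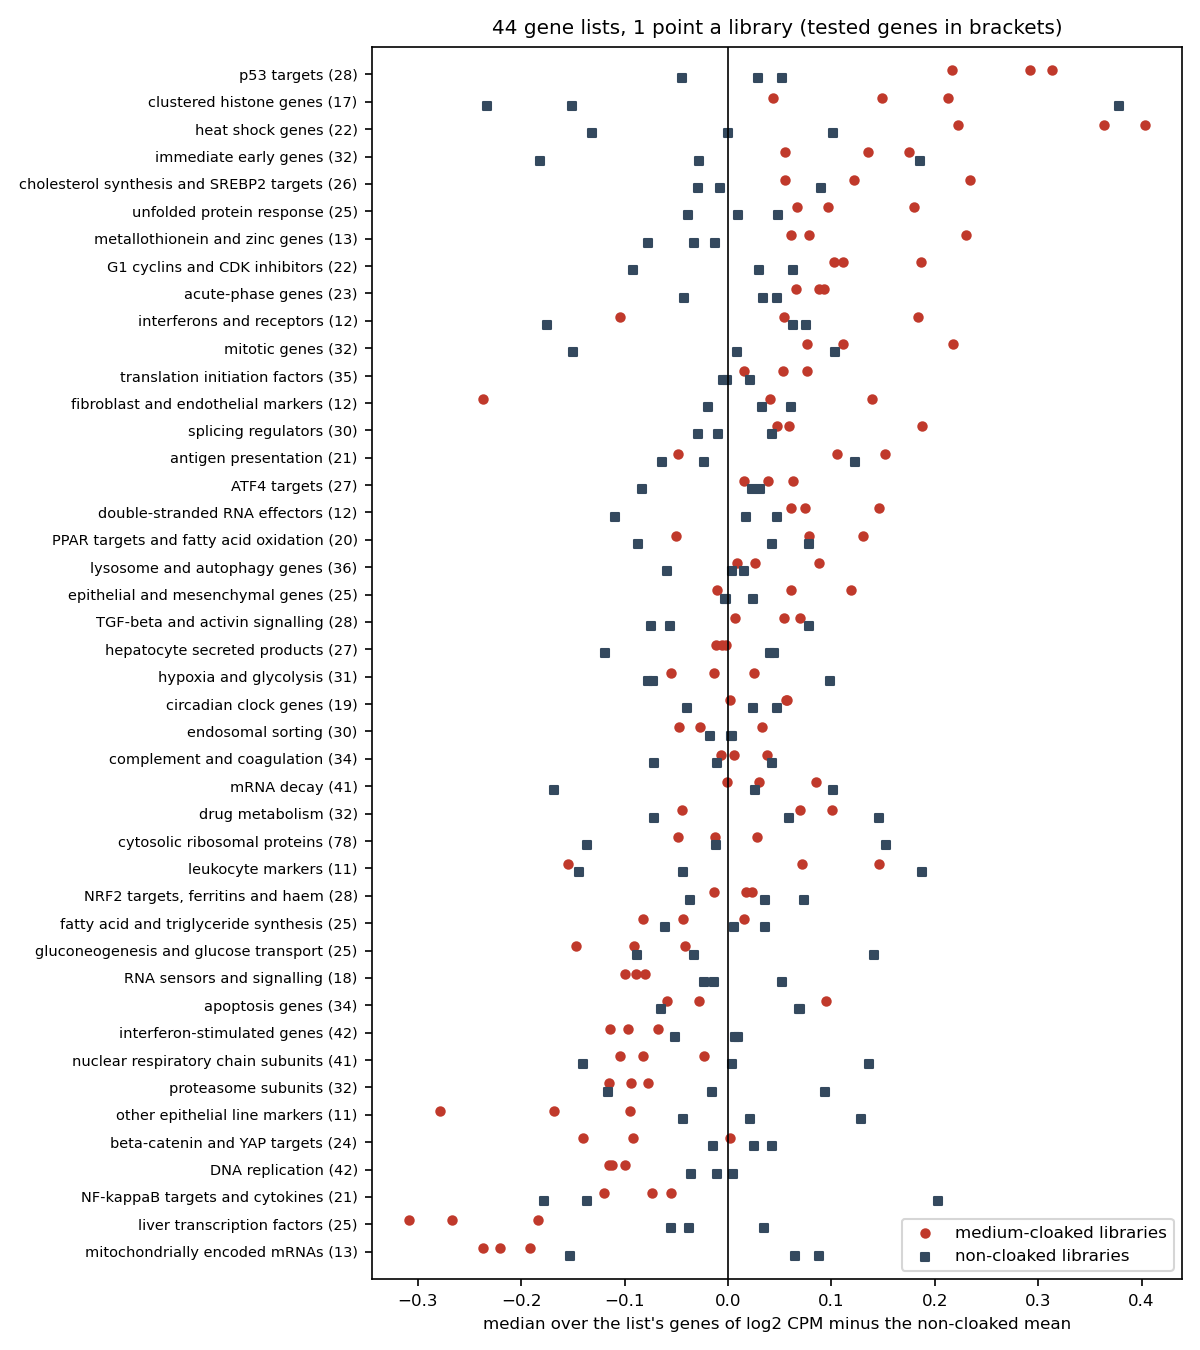
Median over each list's tested genes of log2 CPM minus the non-cloaked mean, 1 point a library, for 44 gene lists sorted by their log2 fold change. The lists at the top are p53 targets, clustered histone genes and heat shock genes, those at the bottom liver transcription factors and mitochondrially encoded mRNAs. The histone list has its place by single libraries: its median of 0.26 came to -0.02 without non-cloaked replicate 2, and non-cloaked replicate 3 lies above all 3 medium-cloaked libraries.

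Liver transcription factors leaned lower. Of 25 factors 21 had a log2 fold change below 0, against 9612 of the 18380 tested genes, and the list median was -0.20. At an unadjusted p below 0.05 there were 1 higher and 6 lower, 28% of the list against 9.5% of all tested genes. CEBPD, a C/EBP factor of the acute-phase response, stood at 3.72, 3.02 and 3.96 CPM in medium-cloaked cells, against 4.88, 6.27 and 9.05 CPM in non-cloaked cells (log2 -0.92 ± 0.23). It is among the 76 DESeq2 calls and is not called by edgeR.

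HNF4A, a nuclear receptor that holds the hepatocyte program, stood at 142, 124 and 128 CPM, against 179, 195 and 173 CPM (log2 -0.47, 95% interval -0.86 to -0.08). FOXA3, a pioneer factor, stood at 19.0, 20.3 and 24.5 CPM, against 31.2, 24.8 and 49.8 CPM. The exception was ONECUT2, higher at 13.6, 13.9 and 12.4 CPM against 9.45, 8.26 and 6.59 CPM. Lower members numbered 4 to 7 when 1 library was left out and 5 with the correction for length and GC, and the list median stayed between -0.26 and -0.14 in all alternatives run. An antisense gene overlaps HNF4A.

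Secreted products are the output of these cells. Of 27 hepatocyte secreted products 2 were higher and none lower, with a median of 0.01 whose sign varied between alternatives: ALB, given above (log2 0.41 ± 0.13), and AFP, the fetal albumin relative, at 275, 259.9 and 285 CPM in medium-cloaked cells against 233, 204 and 214 CPM in non-cloaked cells (0.33 ± 0.11). The share of secreted products with a small p was 7.41%, against 9.5% of all tested genes. With the correction for length and GC the log2 fold change of AFP was 0.17, no longer a small p, which left ALB as the 1 higher product. SERPINA1, alpha-1 antitrypsin, overlapped at 4946, 5069 and 5276 CPM against 4538, 5204 and 5481 CPM. Of 23 acute-phase genes 2 were higher and 3 lower, and each library left out gave 0 or 1 higher and 2 or 3 lower. With all libraries 21.7% of the acute-phase genes had a small p, against 9.5% of all tested genes. HAMP, the iron hormone hepcidin, was lower at 67.4, 56.6 and 73.9 CPM against 111, 102 and 159 CPM (log2 -0.91 ± 0.24).

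All 13 mitochondrially encoded mRNAs had a log2 fold change below 0, with a median of -0.23. At an unadjusted p below 0.05 there were 4 lower, against 5.39% lower over all tested genes. MT-CO2, a subunit of cytochrome c oxidase, stood at 3167, 3218 and 3437 CPM in medium-cloaked cells, against 4390.2, 4114 and 4241 CPM in non-cloaked cells (log2 -0.38 ± 0.09). MT-CO1, of the same enzyme, stood at 5413, 5728 and 5869 CPM, against 6352, 6449 and 7509.7 CPM. Neither overlapped, and MT-CO2 was a DESeq2 call. The 13 mRNAs made up 1.99 to 2.05% of counts in medium-cloaked libraries and 2.30 to 2.57% in non-cloaked ones (two-sided exact permutation p = 0.1, the smallest that 3 against 3 allow). Their share was similarly low, 1.98 to 2.08%, in the strong-cloaked libraries and weak-cloaked replicates 2 and 3. It was 2.44% in weak-cloaked replicate 1 and 2.41 to 2.75% in untransfected cells. Since these mRNAs share 1 genome and are cut from common transcripts, they are not 13 independent observations. Lower members numbered 2 to 8 when 1 library was left out, with 2 without medium-cloaked replicate 1 or 2 or non-cloaked replicate 1 or 2 and 8 without non-cloaked replicate 3, and 6 with the correction for length and GC. Among 41 respiratory chain subunits encoded in the nucleus none had a small p, at most 1 in either direction did with 1 library left out, and the median was -0.09.

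Among translation and RNA processing genes, initiation factors and splicing regulators held more higher than lower genes of small p. The shares with a small p were 25.7% and 30%, against 9.5% of all tested genes. Cytosolic ribosomal proteins came to 7.69%, all higher, and mRNA decay genes went both ways in near equal number. The medians of these lists were all near 0. Of 35 translation initiation factors 8 were higher and 1 lower, with a median of 0.07. PABPC1, the cytoplasmic poly(A)-binding protein, stood at 1188, 1294 and 1258 CPM in medium-cloaked cells, against 1012, 920.4 and 928 CPM in non-cloaked cells. EIF3H, a subunit of initiation factor eIF3, stood at 344, 349 and 352 CPM, against 285, 281 and 278 CPM. Each of these was separated without overlap by a small step, with log2 fold changes of 0.39 ± 0.10 and 0.31 ± 0.09. Higher members numbered 5 without non-cloaked replicate 2, non-cloaked replicate 3 or medium-cloaked replicate 3, and 5 with the correction for length and GC.

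The lower member was EIF2B4, a subunit of the exchange factor eIF2B, at 43.6, 36.9 and 45.2 CPM against 58.1, 56.2 and 69.1 CPM. Of 78 cytosolic ribosomal proteins 6 were higher and none lower, with 73 intervals within 2-fold and a median of -0.02 whose sign varied between alternatives. Without non-cloaked replicate 1 the 6 were 2, without medium-cloaked replicate 3 they were 3, and with the correction for length and GC they were 2. Of 30 splicing regulators 7 were higher and 2 lower, with a median of 0.06. With the correction for length and GC the median came to -0.02, with 2 higher and 2 lower. Without non-cloaked replicate 3 or medium-cloaked replicate 1 or 2 there were 4 higher. SF3B1, of the U2 particle, stood at 317, 305 and 314 CPM, against 261, 210.3 and 173 CPM, and CLK1, a kinase of splicing factors, at 33.1, 35.9 and 42.4 CPM against 24.2, 18.7 and 23.9 CPM. Of 41 mRNA decay genes 5 were higher and 4 lower, with 1 higher without non-cloaked replicate 3, 1 lower without medium-cloaked replicate 2, and 2 lower without medium-cloaked replicate 1 or non-cloaked replicate 1.

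Endosomal sorting genes, which act on the route of the particles, held 2 higher and 5 lower of 30, with a median of -0.01 whose sign varied between alternatives. That is 23.3% with a small p, against 9.5% of all tested genes. MVB12A, the ESCRT-I subunit given above as higher in medium-cloaked cells, is not in this list. Without non-cloaked replicate 3 the 5 lower genes were 3, and the 2 higher ones were 0 without non-cloaked replicate 2 and 4 without weak-cloaked replicate 1. VPS4A, the ATPase that takes ESCRT-III apart, stood at 62.5, 77.7 and 75.4 CPM in medium-cloaked cells, against 94.3, 112 and 102 CPM in non-cloaked cells (log2 -0.52 ± 0.13). CHMP6, an ESCRT-III subunit, stood at 11.4, 11.8 and 12.8 CPM, against 15.3, 16.9 and 25.0 CPM. SNX2, a retromer partner, was higher at 59.3, 60.4 and 55.8 CPM against 49.98, 39.6 and 41.0 CPM. COG8 overlaps VPS4A on the opposite strand and was lower as well, at 23.1, 22.8 and 22.2 CPM against 33.7, 32.5 and 36.8 CPM.

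Of 26 cholesterol synthesis and SREBP2 targets 2 were higher and 1 lower, 11.5% with a small p against 9.5% of all tested genes. This count did not hold: none was higher or lower with the correction for length and GC or without non-cloaked replicate 3, and without non-cloaked replicate 1 there were 4 higher and 2 lower. Among the higher ones MSMO1, an enzyme of sterol synthesis, stood at 388, 402 and 406 CPM, against 249.9, 229 and 213 CPM. Of 32 mitotic genes 5 were higher and none lower (2 without medium-cloaked replicate 2, and 3 without medium-cloaked replicate 1 or non-cloaked replicate 2 or 3), while of 42 tested DNA replication genes 1 was higher and 3 lower. Small p came to 15.6% of the mitotic and 9.52% of the replication genes, against 9.5% of all tested genes. The separase gene ESPL1, given above as lower in medium-cloaked cells, is not in the mitotic list. None of the replication genes was lower without non-cloaked replicate 3 or medium-cloaked replicate 2, 1 was without non-cloaked replicate 2 or medium-cloaked replicate 1 or 3, and 7 were without weak-cloaked replicate 1. Of 34 tested apoptosis genes 3 were higher and 4 lower, 20.6% with a small p against 9.5% of all tested genes. There were 0 higher without non-cloaked replicate 3, 1 without non-cloaked replicate 2 or medium-cloaked replicate 2, and 5 without non-cloaked replicate 1. BAD, a cell death factor, was lower at 12.8, 13.995 and 11.9 CPM against 17.99, 18.5 and 24.6 CPM, and MCL1, a survival factor, was higher at 393, 430.1 and 327 CPM against 289.6, 287 and 228 CPM.

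None of 31 hypoxia and glycolysis genes and none of 28 genes of TGF-beta and activin signalling had a small p with all libraries in the fit; with 1 left out there were at most 2 in either direction in each of these lists. Over the 44 lists the medians ran from -0.23 to 0.26. The share of members with an unadjusted p below 0.05 exceeded that of all tested genes in 25 of the 44, and the median kept its sign in all 17 alternatives run for 19 of them.

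Fold changes differed with base composition. The tested genes were put into 4 classes of equal size by transcript GC content. In the class of lowest GC the median log2 fold change was 0.20, with 422 genes higher and 39 lower at an unadjusted p below 0.05. In the class of highest GC it was -0.18, with 35 higher and 536 lower, and the 2 middle classes lay between, at 0.04 and -0.09. The 31 higher DESeq2 calls had a median transcript GC content of 41.5% and the 45 lower ones 59.3%, against 49.4% for all tested genes.

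Within single libraries, the median log2 deviation of low-GC genes minus that of high-GC genes was 0.146, 0.109 and 0.087 in the medium-cloaked group and 0.034, -0.358 and -0.517 in the non-cloaked group (two-sided exact permutation p = 0.1, the smallest possible). The other 9 libraries reached from -0.486 to 0.560, within the weak-cloaked group alone from -0.486 to 0.516. With offsets for length and GC content, edgeR again called no gene, 1306 genes had an unadjusted p below 0.05, and 949 of the first 1746 were among them with the same sign. Of the 76 DESeq2 calls 69 also had a p below 0.05 and the same sign in that edgeR fit, which their choice on the same counts favours. The part of base composition in the gene differences was not tested.

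Against untransfected cells, edgeR's quasi-likelihood test called 1148 genes higher (6.25%) and 1376 lower (7.49%) in medium-cloaked cells. In non-cloaked cells it called 706 higher (3.84%) and 489 lower (2.66%). The comparisons share the 3 untransfected libraries, and the difference between their counts was not tested. For ATF3, untransfected cells held 17.8 to 34.4 CPM, below all 6 libraries of the 2 groups given above.

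To place the medium grade among the others, it was set against the mean of the weak- and strong-cloaked groups, which uses none of the non-cloaked libraries. edgeR called no gene (0%, smallest adjusted p 0.146), with 735 genes at an unadjusted p below 0.05 (4% of those tested), and DESeq2 called 4 (0.0218%). Without weak-cloaked replicate 1, which stood apart from its group, edgeR called 1 gene, KIAA0408, and 1179 had an unadjusted p below 0.05. Against the same non-cloaked libraries, 721 genes (3.92%) had an unadjusted p below 0.05 for the weak grade and 663 (3.61%) for the strong grade, beside the 9.5% for the medium grade. At the adjusted threshold edgeR called SPAG1 for the weak grade (1 gene, 0.00544%) and none for the strong grade. These comparisons share their non-cloaked libraries, and the difference between their counts was not tested.

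Of the 5 genes of smallest p in this contrast, VPS4A, already described, was lower in medium-cloaked cells than in weak-cloaked (87.9 to 103 CPM) and strong-cloaked (93.4 to 117 CPM) cells (log2 -0.50 ± 0.11). TNN, the matrix protein tenascin-N, was lower too, at 1.02, 0.629 and 0.690 CPM against 1.16 to 2.45 CPM in weak-cloaked and 1.44 to 1.79 CPM in strong-cloaked cells. SPAG1, a dynein assembly factor, stood at 0.188, 0.219 and 0.338 CPM in medium-cloaked cells against 8.68 to 16.2 CPM in weak-cloaked and 0.146 to 0.377 CPM in strong-cloaked cells. SH2D5, a signalling adaptor, was uneven, at 0.700, 6.53 and 2.72 CPM in medium-cloaked cells against 0.097 to 0.160 CPM in weak-cloaked and 0 to 0.047 CPM in strong-cloaked cells, and its non-cloaked libraries were uneven as well, at 0.110, 1.71 and 0.137 CPM. CALCRL-AS1, a noncoding RNA that overlaps TFPI, stood at 0.660, 0.888 and 1.23 CPM in medium-cloaked cells against 0.291 to 1.15 CPM in weak-cloaked and 0.031 to 0.047 CPM in strong-cloaked cells. For SPAG1 the medium- and strong-cloaked groups were both low, and for CALCRL-AS1 the strong-cloaked group alone was.

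**Figure D4:**
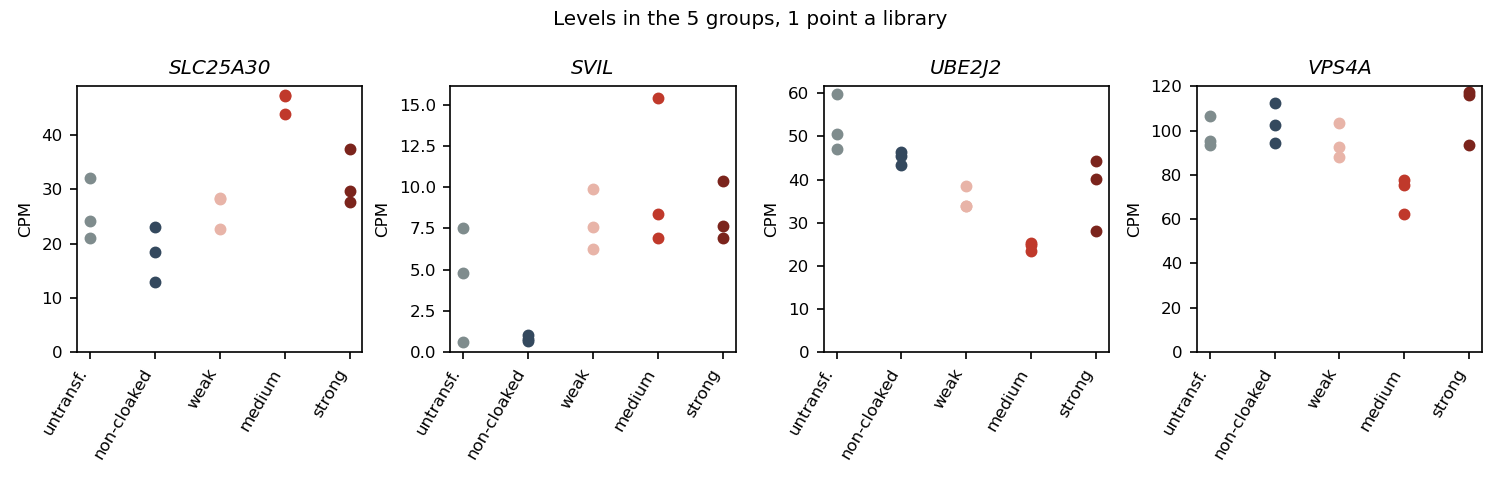
CPM of SLC25A30, SVIL, UBE2J2 and VPS4A in the 15 libraries, 1 point a library, from untransfected through non-cloaked to strong-cloaked cells. SLC25A30 peaks and UBE2J2 and VPS4A are lowest in medium-cloaked cells, whereas SVIL is low in all 3 non-cloaked libraries and similar in the 3 cloaked groups.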

How the data were processed

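Poly(A)-selected, strand-specific libraries were sequenced on an Illumina NovaSeq as 150 bp paired-end reads from RNA with a RIN of at least 7.0, per the labels' protocols. The authors deposited raw counts per gene symbol. The submitters' processing notes name HISAT2, HTSeq, DESeq2 1.46.0, R 4.4.2 and GRCh38. The sources used here give no annotation release, strand setting or rule for the matrix labelled filtered. Of 41412 rows, 14176 were 0 in every library. Groups and replicate numbers came from the titles. Replicates differed by far more than sampling noise and were kept as separate samples.

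The statistics were computed with edgeR 4.0.16 (R 4.3.3, limma 3.58.1). Its filterByExpr defaults left 18380 genes, TMM scaled the libraries, and the robust quasi-likelihood fit had a mean for each of the 5 groups over the 15 libraries. The code was tested on simulated data. Every p without another name is edgeR's quasi-likelihood p, and small p means an unadjusted p below 0.05. CPM values use the TMM-scaled library sizes. The biological coefficient of variation was 0.344, and at this depth the spread between replicates, not counting error, set the precision. The floor of 3 counts covers counting error only. DESeq2 1.42.0, other scalings and filters, offsets for transcript length and GC (loess in each library, span 0.5), a replicate block and leaving out single libraries were the alternatives. Coordinates, lengths and GC came from GENCODE 29 on GRCh38, which matched 18338 tested genes.

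Genes named were the 10 of smallest p, a panel of 15, the 5 of smallest p against the other cloaked grades, and up to 4 called members per list plus 12 called genes in each direction, of which there were none. Some genes these rules name are not reported here. List members and DESeq2 calls named in the text were picked after their values were seen. The comparison, the 44 lists (1221 genes) and the panel were chosen with earlier results of these data known.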

Additional observations from a re-analysis of the deposited data

Results flagged for a closer look

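ISG15 and CXCL8 were singled out because every medium-cloaked library lay on one side of the non-cloaked mean and every strong-cloaked library on the other. For ISG15 the medium-cloaked group stood below it at 45.3, 52.8 and 47.5 CPM and the strong-cloaked group above it at 62.2 to 63.0 CPM, a log2 difference of medium minus strong of -0.37 ± 0.15 (SE). For CXCL8 the medium-cloaked group stood above it at 13.7, 15.6 and 12.9 CPM and the strong-cloaked group below it at 9.24 to 11.6 CPM, a log2 difference of 0.45 ± 0.27. By edgeR's quasi-likelihood test of medium against strong, the unadjusted p was 0.034 for ISG15 and 0.11 for CXCL8, and the adjusted p was 0.96 for each, so neither difference was called. The rule picks genes whose medium- and strong-cloaked libraries lie apart, which favours a small p in this test. The rule was applied to 25 named genes and 2 other grades.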

How the results depend on the processing

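The count of 0 called genes between medium- and non-cloaked cells was the same under other scalings, filters, sample sets, the non-robust fit and the length and GC offsets, and was 76 with DESeq2. Leaving out 1 library gave 0 to 2: UTRN without non-cloaked replicate 1, and CCNK and IDH2 without medium-cloaked replicate 2. Medium against the mean of weak and strong gave 4 with DESeq2, 1 with the offsets (SPAG1), and 0 to 2 with 1 library left out. Same-numbered medium- and non-cloaked libraries did not deviate together (correlations 0.02, -0.01 and 0.01), and no label says that the numbers pair samples. Such correlations cannot show whether same-numbered libraries were handled together. The replicate block left 0 calls in both contrasts, with 1742 and 747 genes at an unadjusted p below 0.05, and with the offsets added 0 calls, with 1419 and 744. DDX58, EIF2AK2 and CXCL8 reversed with the offsets, to -0.026, -0.082 and -0.079, and with the replicate block added to -0.035, -0.080 and -0.071. With 1 library left out, IFIT1 ranged from -0.27 to 0.18, CXCL8 from -0.10 to 0.53, TNFAIP3 from -0.062 to 0.26, SPAG1 from -0.38 to 0.061 and CALCRL-AS1 from -0.20 to 0.91. Of the named genes' other values 482 kept their direction and side of the threshold, and the 10 genes of smallest p were called under DESeq2. Of 748 list medians 146 moved by more than the SD of the medium-cloaked libraries. With 3 libraries a group, smaller differences than about 0.62 on the log2 scale were below the median half-width of the 95% intervals. The causes of these shifts were not tested.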
